A study of Mus musculus with 12 samples.

Results

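Potassium channel subunits were taken from the array table as the genes whose symbol starts with Kcn, the root given to channel pores and to their auxiliary subunits. Of the 11358 genes read by a probe set with a single symbol, 44 had such a symbol. Kcnq1ot1 and Kcnmb4os2 are non-coding RNAs named after neighbouring channel genes and were set aside, which left 42 subunit genes. When several probe sets read a gene, the one with the highest mean over all 12 arrays was used, whichever group that mean came from. Of the 42 genes, 21 were bright enough to be tested among 8783 genes, which required a level above the 40th percentile of the array on at least 3 arrays.

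The arrays measured RNA of fluorescent cells sorted from the cortex of mouse embryos, 3 arrays for each of 4 groups. MGE cells, which originate in the medial ganglionic eminence, carried the Nkx2-1-Cre transgene and the Cre-dependent reporter R26R-YFP on both alleles and were collected at E14.5 or at E18.5. CGE cells carried Nkx2-1-Cre together with Dlx1-lox-Venus-lox and were collected at E16.5 or at E18.5. In that cross Cre would remove Venus from the Nkx2-1 lineage and leave Dlx1-expressing cells outside it fluorescent. The labels call these CGE cells, and the sources used here do not say how complete the removal was. All groups therefore carried the Cre transgene, which in the MGE cross marks every descendant of cells that had expressed Nkx2-1 and not interneurons alone. Embryos were pooled. No source used here says how many embryos or litters an array stands for, so the p-values measure the spread between these pools.

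Potassium channels let potassium leave the cell along its gradient, which sets the resting potential and ends action potentials. Voltage-gated (Kv) channels open on depolarisation, calcium-activated channels open when calcium enters, inwardly rectifying (Kir) channels and 2-pore-domain (K2P) channels hold the resting potential, and auxiliary subunits change the gating or surface delivery of pore subunits. Cortical interneurons are known for Kv3 channels that allow fast spiking, whereas Kir4.1 and Kir5.1 are best known in glia and in epithelia.

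Values are the deposited log2 levels, and a difference of 1 is a doubling. Array medians lay between 7.75 and 7.81 and the lowest level that counted as bright lay between 7.10 and 7.17, depending on the array. In the early lineage comparison CGE cells of E16.5 were subtracted from MGE cells of E14.5, so it differs in day as well as in origin. In the late lineage comparison both were at E18.5. Maturation is E18.5 minus the earlier day of the same lineage. These comparisons share arrays. Markers differed in the direction of the labelled origins. All 5 measured MGE interneuron markers, Lhx6, Sox6, Satb1, Sst and Maf, were higher in MGE cells in the early comparison. In the late one 4 were, and Sst was not called (adjusted p = 0.204, limma). All 6 CGE markers, among them Prox1, Sp8 and Htr3a, were lower in both. Sp8 and Adarb2 passed the brightness limit through CGE arrays alone, which favoured their calls. Of all tested genes 4.14% were called higher early and 12.9% late, and 5.87% and 9.81% lower. Markers were not exclusive to a lineage. Lhx6 had means of 10.77 and 10.65 in CGE cells at E16.5 and E18.5, and Prox1 rose in MGE cells from 4.55 to 9.02. MGE E14.5 replicates 1 and 2 were the closest pair of arrays, with an SD of their log2 differences of 0.231 against 0.376 to 0.518 for the other pairs, and both were kept as separate replicates.

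At E18.5, channel genes were more often higher than lower in MGE cells. Over all 42 genes, without any brightness limit, 17 were called higher in MGE cells and 5 lower at an adjusted p under 0.05 (limma), that is 40.5% and 11.9% of them, while 13.1% and 9.34% of all 11358 genes were called. The median difference was 0.22 over the 42 genes and -0.02 over all genes. Among the 21 bright genes 12 were higher and 1 was lower, where 12.9% and 9.81% of the 8783 tested genes were called. In the early comparison 4 of the 42 genes were higher and 3 lower, 9.52% and 7.14% of them, against 3.56% and 5.10% of all genes. Among the bright ones 5 were higher and 2 lower, against 4.14% and 5.87% of the tested genes. The brightness limit itself favoured differences in some genes. Kcnj10, Kcnj16 and Kcnq3 passed it through the MGE E18.5 arrays alone, Kcnmb2 and Kcnma1 through MGE arrays alone, Kcnn1 and Kcnj11 through CGE arrays alone, Kcnk1 through E18.5 arrays alone and Kcnh8 through arrays of the earlier days alone. For the called genes among these, differences, SEs and adjusted p-values are therefore those of the fit over all 11358 genes without the limit, and no fold is given. Counts of bright genes are given as descriptions.

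Among the 21 bright genes, the largest differences between the lineages at E18.5 belonged to a pair of Kir subunits and to the Kv4 pore Kcnd2 with its partner Kcnip3. Kcnj16 encodes Kir5.1, which conducts mainly when joined to Kir4.1, and Kcnj10 encodes Kir4.1, the main glial Kir channel. Kcnd2 encodes Kv4.2, a pore of the A-type current that delays firing in dendrites. Kcnip3 encodes KChIP3, a calcium-binding protein that accompanies Kv4 pores and is also known as the transcriptional repressor DREAM. Since these 4 genes moved together, the 250 bases before the transcript start are printed for each, in the direction of transcription, from the RefSeq table for GRCm38.p6 and with the E-box CAGCTG in capitals. For Kcnj16, chr11:110967783-110968032 on the plus strand and Kcnip3, chr2:127522095-127522344 on the minus strand, the first of 4 and of 3 listed starts was used. Kcnj10 lies at chr1:172340960-172341209 and Kcnd2 at chr6:21215096-21215345, both on the plus strand.
Kcnj16: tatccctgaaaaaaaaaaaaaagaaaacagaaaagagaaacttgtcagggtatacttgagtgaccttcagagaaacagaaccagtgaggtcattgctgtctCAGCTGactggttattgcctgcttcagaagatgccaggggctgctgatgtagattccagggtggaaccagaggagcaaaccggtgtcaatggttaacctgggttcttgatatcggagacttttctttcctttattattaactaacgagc
Kcnj10: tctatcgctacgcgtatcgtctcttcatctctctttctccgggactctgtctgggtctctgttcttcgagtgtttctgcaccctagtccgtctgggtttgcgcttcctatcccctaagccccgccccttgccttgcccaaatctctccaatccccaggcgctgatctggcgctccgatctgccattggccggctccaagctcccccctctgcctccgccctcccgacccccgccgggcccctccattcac
Kcnip3: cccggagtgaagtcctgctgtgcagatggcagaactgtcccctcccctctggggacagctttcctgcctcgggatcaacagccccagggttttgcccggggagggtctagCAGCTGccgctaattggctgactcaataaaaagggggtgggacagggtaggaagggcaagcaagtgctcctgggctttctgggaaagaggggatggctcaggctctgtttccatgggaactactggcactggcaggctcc
Kcnd2: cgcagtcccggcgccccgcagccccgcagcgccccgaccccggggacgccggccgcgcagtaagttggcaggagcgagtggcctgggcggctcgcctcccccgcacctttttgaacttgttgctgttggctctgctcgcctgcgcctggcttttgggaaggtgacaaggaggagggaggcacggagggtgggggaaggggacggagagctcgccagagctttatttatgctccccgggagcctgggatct
The E-box, which reads the same on both strands, starts at -149 in Kcnj16 and at -140 in Kcnip3, counted back from -1 at the base before the start, and is not among the letters of the Kcnj10 and Kcnd2 windows. The SOX core ACAAT, searched on both strands (reverse complement ATTGT), matched none of the 4 windows. Of all 32851 windows of this length, 13.0% held CAGCTG and 27.7% held ACAAT. Of the 56 windows listed for the channel subunit genes, 15 held CAGCTG and 11 held ACAAT. The motifs do not overlap each other.

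Kcnj16 stood at 4.04, 3.94 and 4.14 in MGE cells at E14.5 and at 9.08, 8.40 and 9.47 at E18.5. In CGE cells it was at 4.43, 4.02 and 4.10 at E16.5 and at 3.99, 3.97 and 3.90 at E18.5. The 3 MGE E18.5 arrays were far above the other 9 arrays, which lay close to the lowest value in the table, 3.23. In the fit without the limit the late lineage difference was 5.03 ± 0.22 (SE), with an adjusted p of 3.75e-08 (limma), and MGE maturation was 4.94 ± 0.22 (adjusted p = 8.70e-08). The other probe set of the gene gave 4.24 and 3.94.

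Kcnj10 had the same outline. It stood at 4.45, 4.15 and 4.29 in MGE cells at E14.5, and rose to 8.23, 7.53 and 8.78 at E18.5. CGE cells held 4.31, 4.39 and 4.38 at E16.5 and 4.43, 4.45 and 5.25 at E18.5. The MGE E18.5 arrays again shared no level with the others, and replicate 3 of CGE E18.5 was the highest of the rest. Without the limit, the late lineage difference was 3.47 ± 0.29 (adjusted p = 5.27e-06) and MGE maturation was 3.88 ± 0.29 (adjusted p = 2.64e-06).

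Kcnd2 was at 7.18, 7.01 and 7.23 in MGE cells at E14.5 and at 10.29, 10.08 and 10.82 at E18.5. CGE cells were at 8.38, 7.19 and 7.82 at E16.5 and at 7.49, 7.15 and 6.93 at E18.5. Unlike the Kir genes it was bright on arrays of every group, and MGE E18.5 lay above all other arrays. It was higher in MGE than in CGE cells at E18.5 by 3.21 ± 0.27 (9.25-fold, adjusted p = 5.77e-06) and rose in MGE cells by 3.25 ± 0.27 (9.54-fold, adjusted p = 6.56e-06). Its other 2 probe sets differed by 3.14 and 3.51 at E18.5 and were called as well. Kcnip3 was at 7.08, 7.01 and 6.85 in MGE cells at E14.5, and at 10.17, 9.71 and 10.64 at E18.5. Its CGE levels were 7.70, 7.98 and 7.52 at E16.5 and 7.15, 7.95 and 7.97 at E18.5. Here the earliest MGE arrays were the lowest, below every CGE array, although this early difference of -0.75 ± 0.26 missed the threshold (adjusted p = 0.0954). At E18.5 the order had turned, with MGE cells higher by 2.48 ± 0.26 (5.57-fold, adjusted p = 2.71e-05), after a rise of 3.19 ± 0.26 in MGE cells (adjusted p = 4.26e-06).

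In the plot of genes whose change with age differed between the lineages, the 3 MGE E18.5 arrays stand apart for Kcnj16, Kcnj10, Kcnd2 and Kcnip3, while Kcnq3 and Kcns2, described further on, also move in CGE cells.

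**Figure D1:**
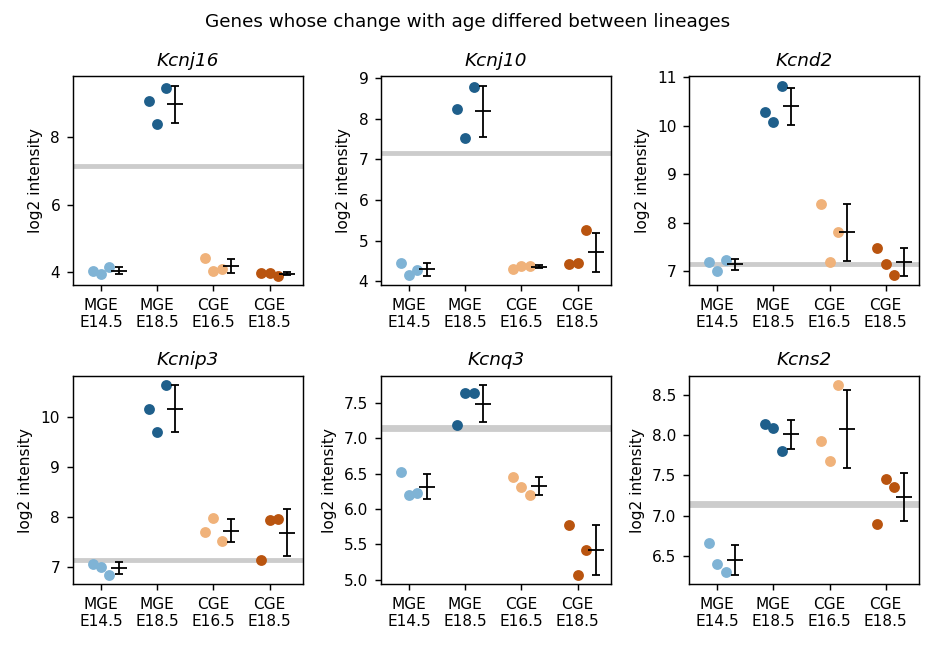
Log2 level (vertical axis) of Kcnj16, Kcnj10, Kcnd2, Kcnip3, Kcnq3 and Kcns2, by group. Points are arrays, bars are the mean and SD of 3 arrays, and the grey band is the range of the brightness limit, 7.10 to 7.17. Kcnj16 and Kcnj10 rise above the band in MGE E18.5 alone.

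Markers of another cell type moved with these genes. Of 12 listed genes of oligodendrocyte precursors, 10 were in the table and 9 were bright enough to test. All 9 were higher in MGE cells at E18.5, with a median difference of 5.47, and rose in MGE cells. Of all tested genes 12.9% and 11.4% were called so. Olig2, Sox10, Nkx2-2, Gpr17 and Bcas1 passed the brightness limit through the MGE E18.5 arrays alone. The limit thus favoured their calls, and the count is a description. Pdgfra, the growth factor receptor of these precursors, was at 12.52, 12.25 and 12.70 on the MGE E18.5 arrays and at 5.08, 6.59 and 6.33 on the CGE E18.5 arrays. The mean level over the 10 genes was 6.75 to 6.98 at MGE E14.5, 10.28 to 10.99 at MGE E18.5, 5.42 to 5.68 at CGE E16.5 and 5.50 to 5.94 at CGE E18.5. Within MGE E18.5 it was 10.53, 10.28 and 10.99, so that replicate 2 was the lowest and replicate 3 the highest. Kcnj16, Kcnj10, Kcnd2 and Kcnip3 had that order, as had Kcnk1 (7.87, 6.92 and 7.98). So had the means of radial glia and astrocyte genes (9.28, 9.18 and 9.37) and of genes of dividing cells (8.99, 8.60 and 9.24). Other bright genes called higher with age in MGE cells did not: Kcns2 (8.14, 8.08 and 7.80), Kcnq3 (7.19, 7.64 and 7.64) and Kcnmb4 (7.87, 8.17 and 8.63). An order of only 3 arrays, shared by several gene lists, cannot assign a gene to a cell type. Radial glia and astrocyte genes, 8 of 10 in the table and 7 tested, were higher in 5 and lower in 1 in the late comparison (12.9% and 9.81% of all tested genes) and rose in 5 in MGE cells (11.4% of all). Their mean was 7.55 to 8.11 at MGE E14.5, 9.18 to 9.37 at MGE E18.5, 8.18 to 8.45 at CGE E16.5 and 8.62 to 9.04 at CGE E18.5. The astrocyte water channel Aqp4 stayed below the brightness limit. Genes shared by GABAergic neurons were lower in MGE cells at E18.5 in 5 of 7, against 9.81% of all tested genes. The part of these cells in the channel differences was not tested. In RNA of sorted pools, more cells of a type and more RNA per cell cannot be told apart.

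Kcnq3 and Kcns2 differed at E18.5 by smaller amounts, and there both lineages contributed. Kcnq3 encodes Kv7.3, a pore of the M-current that restrains repetitive firing. It was at 6.52, 6.20 and 6.23 in MGE cells at E14.5 and at 7.19, 7.64 and 7.64 at E18.5. In CGE cells it was at 6.45, 6.32 and 6.20 at E16.5 and at 5.78, 5.07 and 5.42 at E18.5. The earlier groups overlapped, and by E18.5 the MGE arrays were the highest and the CGE arrays the lowest of the 12. In the fit without the limit it rose in MGE cells by 1.17 ± 0.19 (adjusted p = 0.00113) and fell by 0.90 ± 0.19 in CGE cells (adjusted p = 0.0161), which left a difference of 2.07 ± 0.19 (adjusted p = 1.29e-05).

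Kcns2 was the only one of the 21 tested channel genes called in all 4 comparisons. It encodes Kv9.2, a silent subunit that forms no channel alone and modifies Kv2 pores. MGE cells held 6.65, 6.39 and 6.29 at E14.5 and 8.14, 8.08 and 7.80 at E18.5. CGE cells held 7.92, 7.68 and 8.62 at E16.5 and 6.90, 7.46 and 7.35 at E18.5. The lineages thus crossed, with CGE higher on every early array and MGE higher on every late one. The early difference was -1.63 ± 0.23 (3.09-fold, adjusted p = 0.000687) and the late one 0.77 ± 0.23 (1.71-fold, adjusted p = 0.0304). It rose in MGE cells by 1.56 ± 0.23 (adjusted p = 0.000525) and fell by 0.84 ± 0.23 in CGE cells (adjusted p = 0.0382). The other probe set was called in the early comparison (-1.94) and in MGE maturation (1.91), and gave 0.76 (adjusted p = 0.102) in the late one. The late call was lost without MGE E18.5 replicate 1 (0.71) or replicate 2 (0.74) or CGE E18.5 replicate 1 (0.60).

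A different group of genes was higher in MGE cells at both stages. Kcnk2 encodes TREK-1, a K2P channel opened by stretch and lipids. It was at 10.76, 10.73 and 10.49 in MGE cells at E14.5, at 10.35, 10.49 and 10.27 at E18.5, at 9.15, 8.93 and 9.48 in CGE cells at E16.5, and at 9.16, 8.82 and 8.94 at E18.5. No MGE array came down to a CGE array. The differences were 1.47 ± 0.15 early (2.78-fold, adjusted p = 7.70e-05) and 1.40 ± 0.15 late (2.63-fold, adjusted p = 4.36e-05), and their change was -0.08 ± 0.22 (adjusted p = 0.874).

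Kcnma1 and Kcnmb2, the pore of the large-conductance calcium-activated (BK) channel and a beta subunit that inactivates it, both leaned to MGE cells. Kcnmb2 was at 8.28, 8.27 and 8.65 in MGE cells at E14.5, at 7.83, 7.60 and 7.41 at E18.5, at 5.25, 6.49 and 6.16 in CGE cells at E16.5, and at 5.92, 5.21 and 5.99 at E18.5. All 6 MGE arrays were above the brightness limit and all 6 CGE arrays were below it. Without the limit, the differences were 2.43 ± 0.30 early (adjusted p = 0.00033) and 1.90 ± 0.30 late (adjusted p = 0.000741). Kcnma1 itself was at 7.35, 7.04 and 7.64 and then 6.92, 6.68 and 7.17 in MGE cells, and at 5.90, 6.09 and 6.77 and then 5.96, 4.64 and 5.29 in CGE cells. Its groups did not overlap at either stage, as in 33% of all tested genes early and 36.8% late. The late difference of Kcnma1 was 1.63 ± 0.32 without the limit (adjusted p = 0.00313). Its early difference was 1.09 ± 0.32, which was not called without the limit (adjusted p = 0.0561). The early call with the limit (adjusted p = 0.0485) was lost in 12 of 20 other settings, among them the fits without any 1 of the MGE arrays or without CGE E16.5 replicate 1 or 2 or CGE E18.5 replicate 3, where the difference was 0.91 to 1.24. The neuronal beta subunit Kcnmb4 differed by -0.11 early, which was not called, and was higher in MGE cells at E18.5 by 0.72 ± 0.18 (adjusted p = 0.0146), and without MGE E18.5 replicate 3 that was 0.52 (adjusted p = 0.0552).

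Of the Kv3 pores, Kcnc2 (Kv3.2) was higher in MGE cells. Kcnc2 was at 9.40, 9.36 and 9.14 in MGE cells at E14.5, at 9.19, 9.0 and 8.53 at E18.5, at 8.0, 8.37 and 8.60 in CGE cells at E16.5, and at 7.32, 7.22 and 7.89 at E18.5. MGE arrays exceeded CGE arrays at both stages, by 0.98 ± 0.22 early (adjusted p = 0.0147) and 1.43 ± 0.22 late (2.69-fold, adjusted p = 0.000629). Kcnc1 (Kv3.1) lay between 7.18 and 8.55 over all arrays, with differences of -0.44 (adjusted p = 0.301) and -0.49, and passed no test. A dimmer probe set of it was lower in MGE cells in the early comparison (-0.91, adjusted p = 0.0112 when every probe set was tested). Kcnd3 (Kv4.3), the other Kv4 pore, was higher in MGE cells by 0.63 ± 0.17 early (adjusted p = 0.0329) and 0.93 ± 0.17 late (1.91-fold, adjusted p = 0.00166). Its MGE arrays ran from 9.49 to 9.81 and its CGE arrays from 8.58 to 9.25. When every probe set was tested, another Kcnd3 probe set of similar brightness gave 0.60 early (adjusted p = 0.123) and 0.65 late (adjusted p = 0.0544 by limma), neither called. A dimmer one gave 0.46 early, not called, and 0.70 late (adjusted p = 0.0197). The early call of Kcnc2 was lost without MGE E14.5 replicate 1 (0.93) or replicate 2 (0.95) or CGE E16.5 replicate 1 (0.82), and that of Kcnd3 (0.47 to 0.65) without any MGE E14.5 array or without CGE E16.5 replicate 1 or 2. Without MGE E14.5 replicate 1, MGE E14.5 replicate 2 or CGE E16.5 replicate 1, 4 bright channel genes in place of 7 were called in the early comparison.

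Kcnn1 was the only bright gene called higher in CGE cells at both stages. It encodes SK1, a small-conductance channel opened by calcium that shapes the after-hyperpolarisation. MGE cells held 6.68, 6.44 and 7.12 at E14.5 and 5.84, 6.25 and 6.21 at E18.5, and CGE cells 9.08, 7.85 and 8.16 at E16.5 and 7.80, 8.51 and 8.33 at E18.5. Every CGE array was above every MGE array. Without the limit, the differences were -1.62 ± 0.30 early (adjusted p = 0.00587) and -2.11 ± 0.30 late (adjusted p = 0.000381). Its relative Kcnn2 (SK2) stayed between 8.41 and 9.01 on all 12 arrays and was called in none of the comparisons.

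In the plot of genes by lineage, Kcnk2, Kcnmb2 and Kcnc2 keep MGE above CGE at both stages, and Kcnn1 keeps the reverse order.

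**Figure D2:**
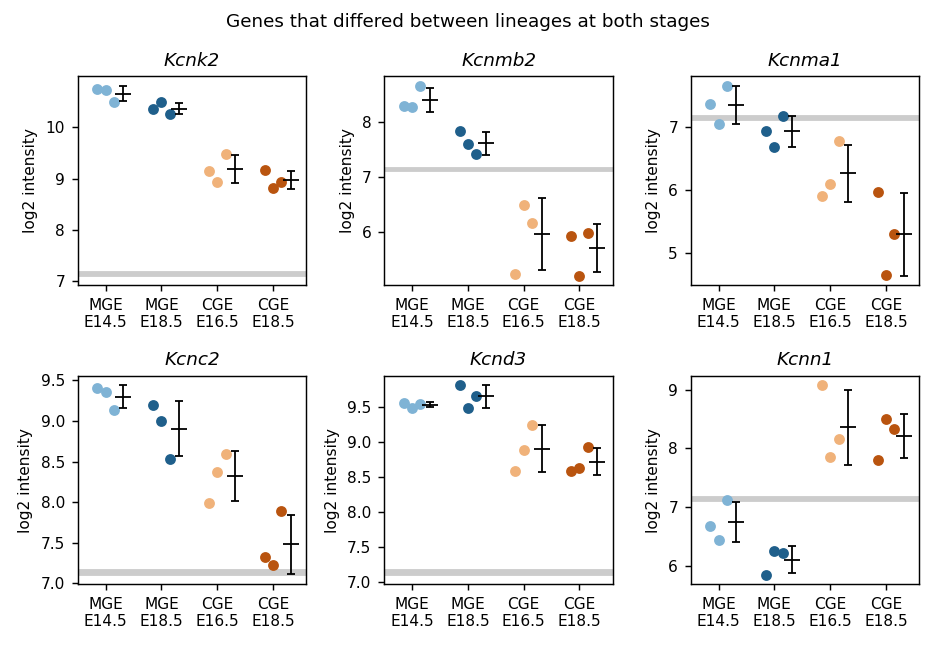
Log2 level (vertical axis) of channel genes that differed between MGE and CGE cells, by group. Points are arrays and bars the mean and SD of 3 arrays, with the brightness limit as a grey band. No MGE array of Kcnn1 reaches a CGE array.

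The plot of both lineage comparisons sets the early and the late difference of each of the 21 bright genes side by side, and Kcnj16 and Kcnd2 move farthest to the right between them.

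**Figure D3:**
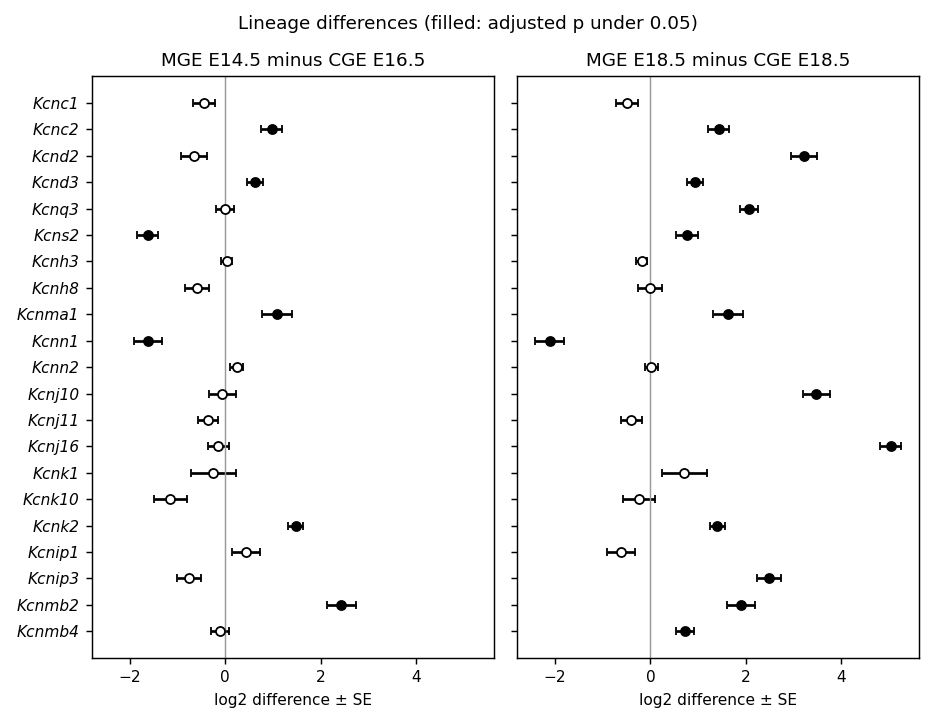
Difference MGE minus CGE on the log2 scale (horizontal axis) of the 21 tested channel genes, early and late, as estimate and SE from limma. Filled points were called at an adjusted p under 0.05, which was 7 genes early and 13 late. Kcnj16, at 5.03, lies farthest to the right in the late comparison.

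With age, more channel genes rose than fell in MGE cells, and more fell than rose in CGE cells. Over all 42 genes, 11 rose and 2 fell in MGE cells, 26.2% and 4.76% of them, against 12.1% and 8.17% of all genes, and 2 rose and 6 fell in CGE cells, 4.76% and 14.3% of them, against 4.07% and 4.90%. Among the 21 bright genes 8 rose and 0 fell in MGE cells by limma, where 11.4% and 9.77% of the tested genes were called, and 0 rose and 4 fell in CGE cells, where the shares were 4.47% and 6.35%. The time spans differ, since MGE cells were followed from E14.5 and CGE cells from E16.5. Genes of dividing cells also rose with age, 4 of 5 in MGE and 5 of 5 in CGE cells, against 11.4% and 4.47% of the tested genes. Both tested microglial genes rose in each lineage, and they passed the limit through E18.5 arrays alone. The part of dividing and microglial cells in the channel changes was not tested.

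The 8 bright genes called higher with age in MGE cells were Kcnj16, Kcnj10, Kcnd2, Kcnip3, Kcns2, Kcnq3, Kcnk1 and Kcnmb4. Kcnk1 encodes TWIK-1, a weakly conducting K2P channel. It was at 6.45, 5.67 and 6.32 in MGE cells at E14.5 and at 7.87, 6.92 and 7.98 at E18.5. These groups did not overlap, as in 47.7% of all tested genes. Kcnk1 changed by 1.44 ± 0.47, which was called with the limit (adjusted p = 0.0486) and not without it (adjusted p = 0.0513). Its CGE E18.5 arrays spread from 5.64 to 7.52, and the late lineage difference was 0.71 ± 0.47 (adjusted p = 0.316 without the limit). Kcnmb4 rose by 0.58 ± 0.18 (adjusted p = 0.0439). The call of Kcnk1 was lost in 12 of 20 settings, with 1.20 to 1.59 on leaving out any MGE E14.5 or CGE E16.5 array or MGE E18.5 replicate 1 or 3. That of Kcnmb4 was lost in 11 of 22, with 0.38 to 0.61 on leaving out any MGE E14.5 array, CGE E16.5 replicate 2, MGE E18.5 replicate 2 or 3, or CGE E18.5 replicate 1.

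The 4 bright genes that fell in CGE cells were Kcnh8, Kcnq3, Kcns2 and Kcnc2. Kcnh8 encodes an ELK channel that opens near the resting potential. It was at 7.98, 7.57 and 7.65 at E16.5 and at 6.21, 6.29 and 7.04 at E18.5, without overlap, as in 25.5% of all tested genes. It fell by 1.22 ± 0.26 in the fit without the limit (adjusted p = 0.0161). In MGE cells it went from 7.14, 6.95 and 7.34 to 6.04, 6.93 and 6.57, a change of -0.63 ± 0.26 that was not called (adjusted p = 0.108). Kcnc2 fell by 0.84 ± 0.22 in CGE cells (adjusted p = 0.0321). When the CGE arrays were fitted without the MGE arrays, 0 of the 21 genes were called by limma, 5 had an unadjusted p under 0.05 and the smallest adjusted p was 0.0516. The count was 2 without CGE E16.5 replicate 3 and 1 without CGE E18.5 replicate 2. The Kcns2 call was lost on leaving out replicate 1 or 2 of either MGE group, CGE E16.5 replicate 1 or 3, or any CGE E18.5 array (-0.95 to -0.57), the Kcnc2 call without CGE E16.5 replicate 2 or 3 or CGE E18.5 replicate 1 or 2 (-0.82 to -0.70), and the Kcnh8 call without CGE E18.5 replicate 2 (-1.11).

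**Figure D4:**
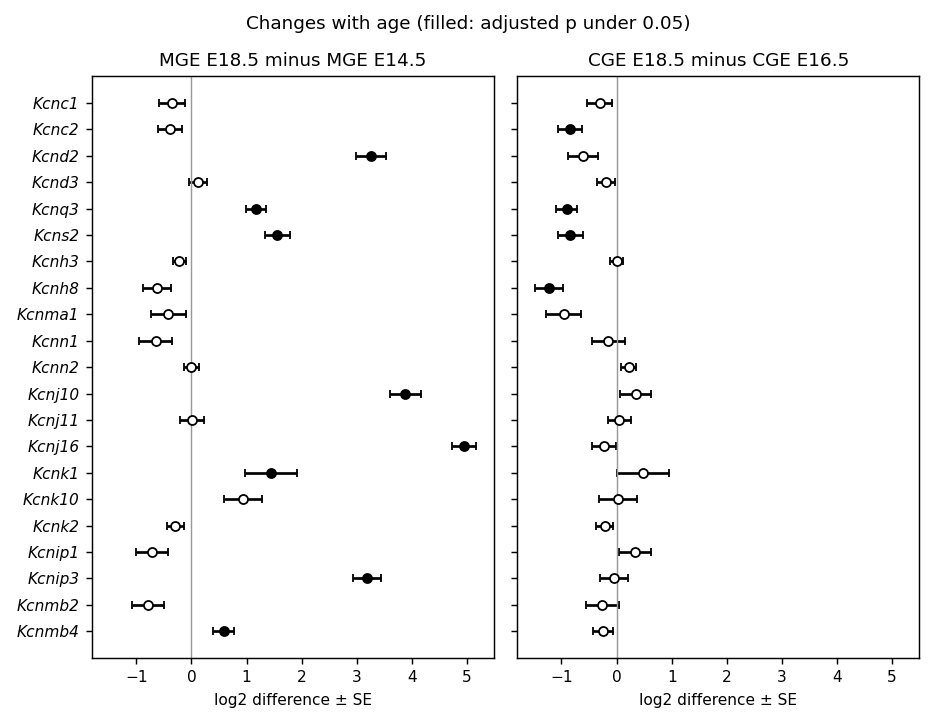
Difference E18.5 minus the earlier day on the log2 scale (horizontal axis) of the 21 tested channel genes in MGE and in CGE cells, as estimate and SE from limma. Filled points were called, 8 in MGE cells, all to the right of 0, and 4 in CGE cells, all to the left.

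The change with age was also tested for a difference between the lineages, as the MGE change minus the CGE change. Over all 42 genes without the limit 8 were called higher and 1 lower, where 6.85% and 1.84% of all genes were called. The 8 were Kcnj16 (5.18 ± 0.31), Kcnd2, Kcnj10 (3.53 ± 0.40), Kcnip3, Kcna2 (2.57 ± 0.32), Kcns2, Kcnq3 (2.08 ± 0.27) and Kcna6 (1.57 ± 0.39), and the 1 was Kcnj9 (-1.72 ± 0.34, adjusted p = 0.00752). Among the 21 bright genes 6 were called higher and 0 lower by limma, where 6.67% and 1.86% of the tested genes were called, and 3 of the 6, Kcnj16, Kcnj10 and Kcnq3, were bright in MGE E18.5 alone. In that fit the differences of Kcnd2 (3.86 ± 0.39), Kcnip3 (3.23 ± 0.36) and Kcns2 (2.40 ± 0.32) had adjusted p-values of 6.11e-05, 0.00015 and 0.000614. Kcnip1 (KChIP1), the other bright Kv4 partner, did not follow Kcnip3. Its levels were 9.72, 9.59 and 9.30 in MGE cells at E14.5, 8.94, 8.77 and 8.76 at E18.5, 8.98, 9.37 and 8.96 in CGE cells at E16.5, and 9.39, 8.70 and 10.22 at E18.5, and its difference of changes was -1.05 ± 0.42 (adjusted p = 0.160). The CGE E18.5 arrays of this gene spread more widely than any other group of it.

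The remaining bright genes passed no test on their brightest probe set. They were Kcnh3, a voltage-gated ELK channel, Kcnj11, the pore of the ATP-sensitive channel, and the K2P channel Kcnk10 (TREK-2), besides Kcnc1, Kcnip1 and Kcnn2. Kcnk10 was at 6.44, 6.75 and 6.60 in MGE cells at E14.5 and at 8.21, 7.65 and 7.39 in CGE cells at E16.5. These groups did not overlap, as in 33% of all tested genes. The early difference of Kcnk10, -1.15 ± 0.34, was not called (adjusted p = 0.0584, limma). Its other probe set gave -0.95 in that comparison, which was called when every probe set was tested (adjusted p = 0.0045). That probe set was also called for MGE maturation (0.60, adjusted p = 0.032), where the brightest one gave 0.94 and was not called (adjusted p = 0.0771). Kcnk10 is a relative of Kcnk2, whose early difference was 1.47.

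Of the 42 subunit genes, 21 lay below the brightness limit, 16 of them on all arrays. All 6 Kv1 pores of the table (Kcna1 to Kcna6) were among them. Whether a transcript at such a level is present cannot be settled from these values, and its differences may be compressed. In the fit without the limit, 11 of the 21 dim genes (52.4%) were called at least once in the 4 comparisons or the interaction, and so were 37.2% of all 2575 dim genes. Kcna2, Kcna6, Kcna1 and Kcnip2 were higher in MGE cells at E18.5 and rose in MGE cells. Kcna2 (Kv1.2), an axonal pore, was at 4.35, 4.67 and 5.22 in MGE cells at E14.5 and at 7.32, 7.14 and 7.11 at E18.5. CGE cells stood at 4.63, 4.21 and 4.59 and then at 4.48, 3.98 and 4.57. The MGE E18.5 arrays were the highest by more than any spread within a group, and 2 of them passed the limit, 1 short of the number required. The late difference was 2.85 ± 0.22 (adjusted p = 3.73e-06) and MGE maturation 2.44 ± 0.22 (adjusted p = 1.48e-05). Kcna6 (Kv1.6) differed by 1.72 ± 0.28 at E18.5 (adjusted p = 0.000935), Kcna1 (Kv1.1) by 1.11 ± 0.26 (adjusted p = 0.0104) and Kcna3 (Kv1.3) by 0.82 ± 0.19 (adjusted p = 0.0104). For Kcna1, MGE E18.5 replicate 2 was at 4.16, near the level of other groups, and the other 2 replicates at 5.36 and 5.41. Kcnip2 (KChIP2), a further Kv4 partner, was higher in MGE cells at E18.5 by 1.80 ± 0.30 (adjusted p = 0.00128).

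Other dim genes leaned to CGE cells. Kcnj9 (Kir3.3), a subunit of the channels opened by G protein-coupled receptors, was at 4.94, 5.24 and 5.01 in CGE cells at E16.5 and at 6.94, 6.09 and 6.31 at E18.5. MGE cells held 5.77, 5.34 and 5.52 and then 5.04, 4.93 and 5.66. It rose in CGE cells by 1.39 ± 0.24 (adjusted p = 0.00781), and at E18.5 the difference was -1.24 ± 0.24 (adjusted p = 0.00307). Kcnq5 (Kv7.5), which can join Kv7.3 in M-channels, was at 5.06, 5.08 and 4.78 in MGE cells at E14.5 and at 5.93, 6.48 and 6.24 in CGE cells at E16.5, a difference of -1.24 ± 0.19 (adjusted p = 0.0015). At E18.5 it was at 5.42, 5.17 and 5.69 in MGE and at 5.75, 5.77 and 6.21 in CGE cells, which was not called. Kcnab1, an auxiliary beta subunit of Kv1 channels, differed by -0.68 at E18.5 (adjusted p = 0.00758) and rose in CGE cells by 0.65 (adjusted p = 0.0242). Of the remaining dim genes with a call, Kcnip4 (-0.38) and Kcnt1 (-0.51) were lower in MGE cells at E18.5 and fell in MGE cells, and Kcnu1 (-0.95) and Kcna3 (-0.72) fell in CGE cells.

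**Figure D5:**
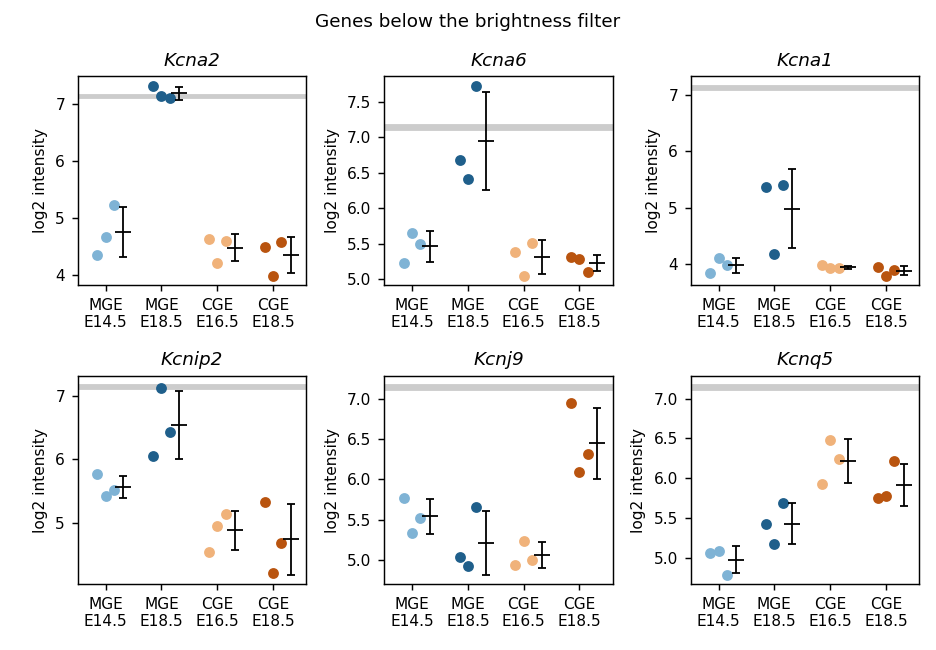
Log2 level (vertical axis) of channel genes below the brightness limit, by group. Points are arrays, bars the mean and SD of 3 arrays, and the grey band the limit. Kcna2 reaches the band in MGE E18.5 alone, and Kcnj9 is highest in CGE E18.5.

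Proteins that accompany the channels did not share one direction. Of 19 listed partners, 15 were in the table and 13 were tested. In the early comparison 2 were higher and 3 lower in MGE cells by limma, against 4.14% and 5.87% of all tested genes. In the late one it was 3 and 1, against 12.9% and 9.81%. With age 1 rose and 4 fell in MGE cells, against 11.4% and 9.77%, and 0 rose and 1 fell in CGE cells, against 4.47% and 6.35%. Counts among 13 genes are given as descriptions. Dpp10, which joins Kv4 pores as KChIPs do, was at 10.14, 9.68 and 10.57 in MGE cells at E14.5 and at 8.43, 8.17 and 8.46 at E18.5, so that it fell by 1.77 ± 0.27 (adjusted p = 0.000682) while Kcnd2 and Kcnip3 rose. It was nevertheless higher in MGE than in CGE cells, by 3.42 ± 0.27 early and 2.42 ± 0.27 late (adjusted p = 4.84e-05). Its relative Dpp6 was higher by 1.45 ± 0.40 late (adjusted p = 0.0219), with CGE E18.5 arrays at 7.34, 5.98 and 8.20. Lgi1, a secreted protein tied to Kv1 channels, had an early difference of -1.85 ± 0.17 (adjusted p = 3.40e-05), a rise of 0.78 in MGE cells, a fall in CGE cells (-0.89) and a late difference of -0.19 that was not called (adjusted p = 0.484). Among subunits of the sodium-potassium pump, which restores the potassium gradient, 5 of 10 were in the table and 4 were tested. Atp1b2, its glial beta subunit, was at 9.91, 10.02 and 10.47 at MGE E18.5 and at 8.65, 8.88 and 8.13 at CGE E18.5, a difference of 1.58 ± 0.20 (adjusted p = 0.000152), and it rose in MGE cells by 1.60 (adjusted p = 0.00017). The other tested pump genes did not share this course. Atp1b3 was higher at E18.5 by 0.49 without a called rise. Atp1b1 rose in MGE (0.67) and CGE cells (0.51) and differed by -0.07 at E18.5, not called. Fxyd6 was lower in MGE cells early (-0.98) and not called late (-0.25).

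By family, the late calls were spread over several classes. Both Kv4 pores, both BK beta subunits, 2 of 3 bright Kir pores, 1 of 2 bright Kv3 pores, 1 of 3 bright K2P pores and 1 of 2 bright KChIPs were higher in MGE cells at E18.5, as were the single bright Kv7 pore and the single bright silent subunit. Of the 3 bright calcium-activated pores 1 was higher and 1 lower, and neither of the 2 bright members of the EAG, ERG and ELK class was called by limma. Of all tested genes 12.9% were called higher and 9.81% lower. These fractions are descriptions, since Kcnj10, Kcnj16 and Kcnq3 were bright in MGE E18.5 alone. Kcnmb2 and Kcnma1 were bright in MGE arrays alone and Kcnn1 in CGE arrays alone. Dim relatives are left out, among them Kcnip2, higher in MGE cells at E18.5, and Kcnj9 and Kcnip4, lower. Over the 4 comparisons, 6 of the 21 bright genes were never called, 10 were called in 2 comparisons and 1, Kcns2, in all of them.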

How the data were processed

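RNA of sorted cells was amplified (NuGEN Ovation Pico) and hybridised to Affymetrix Mouse430_2 arrays. The log2 values deposited by the authors had been background-corrected and normalised with Bioconductor according to the methods. The submitters' notes list MAS5 without a version, and which algorithm was used stays unknown here. The table held 27094 probe sets, of which 34 were controls. Gene symbols came from the platform annotation: 22339 probe sets had a single symbol, 571 had several and 4150 had none. Probe sets of 1 symbol covered 11358 genes, and 79 of them read Kcn genes. Entrez identifiers of all 44 Kcn symbols were found in a RefSeq table, which changed 0 of them.

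Each gene was represented by its probe set of highest mean, and was tested if that probe set lay above the 40th percentile of the array on at least 3 of 12 arrays. All 12 arrays entered a single linear model with a mean for each group (limma 3.58.1, R 4.3.3), moderated by eBayes, with 8 residual and 3.60 prior degrees of freedom. For each comparison, two-sided p-values of the 8783 tested genes were adjusted together (Benjamini-Hochberg). The fit without a brightness limit was adjusted over 11358 genes. All 42 members are accounted for in the counts. Every bright gene is named, and so are dim genes with calls chosen after their values were seen. Members and gene lists were chosen with earlier results of these data known. The number of arrays limits the precision.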

Additional observations from a re-analysis of the deposited data

Results flagged for a closer look

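For 9 of 42 channel genes the change with age differed between MGE and CGE cells by the interaction test of limma. Of these, 8 were higher and 1 lower, where 6.85% and 1.84% of all 11358 genes were called without the limit. With the limit, the change in MGE cells minus that in CGE cells was 3.86 ± 0.39 on the log2 scale for Kcnd2, 3.23 ± 0.36 for Kcnip3 and 2.40 ± 0.32 for Kcns2. In the fit without the limit it was 5.18 ± 0.31 for Kcnj16, 3.53 ± 0.40 for Kcnj10 and 2.08 ± 0.27 for Kcnq3. For dim genes that fit gave 2.57 ± 0.32 for Kcna2 (adjusted p = 0.000366) and 1.57 ± 0.39 for Kcna6 (adjusted p = 0.0289). In the other direction it gave -1.72 ± 0.34 for Kcnj9 (adjusted p = 0.00752). MGE cells were followed from E14.5 and CGE cells from E16.5, so lineage and time span cannot be told apart here.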

How the results depend on the processing

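Across 23 other settings, 38 called differences were recomputed as 823 values, of which 745 kept the call, 78 lost it and 0 changed sign, and 27 of the 38 kept the call in every setting run for them. A gene that a stricter limit removed has no value there, so between 19 and 23 settings stand behind each. Settings that changed only the limit, the moderation, the replicate block or arrays outside the comparison returned the same difference. In those settings the sign could not change, and only the p-values could. The brightness limits changed how many members were tested: 9 with the 60th percentile, 13 with a limit on the mean over 12 arrays and 42 with none. The early comparison called 7, and 3 with the 60th percentile, 11 with array weights and 4 with MGE E14.5 replicates 1 and 2 averaged. The late comparison called 13, and 22 without a limit, 6 with the 60th percentile and 8 with the limit on the mean. MGE maturation called 8, and 13 without a limit, 3 with the 60th percentile, 4 with the limit on the mean and 14 with array weights, of which 5 were lower. Array weights raised the calls over all genes too, from 880 to 1809 in the early comparison and from 1857 to 3486 in MGE maturation. CGE maturation called 4, and 8 without a limit, 1 with the 60th percentile, 2 with the limit on the mean, 1 with array weights and 0 with the groups compared alone, where 5 had an unadjusted p under 0.05 by limma. The interaction called 6, and 3 with either stricter limit. The cause of the changes under array weights was not tested. Leaving out 1 array gave 4 to 9, 12 to 14, 6 to 10, 1 to 4 and 6 to 7 calls for these comparisons in the same order.

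Replicate numbers were not shown to pair the arrays. Deviations of same-numbered arrays correlated at 0.07 to 0.28 in the early comparison and at -0.17 to 0.13 in the others, and 4, 0, 0 and 2 of 6 arrays matched their own number best in the early, late, MGE and CGE comparisons. With the number as a replicate block, 7, 12, 7, 3 and 6 channel genes were called. Dim genes limit what these arrays can show, since no detection calls were used.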
